A study of Mus musculus with 6 samples.

Results

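The genes described here are 36 interferon response and antigen presentation genes, out of 51911 genes in the count table. They were chosen by symbol from known biology: 2 cytoplasmic RNA sensors, 4 STAT and IRF transcription factors, 18 antiviral effectors, 5 interferon-inducible GTPases and 7 genes of MHC class I presentation. All 36 symbols matched 1 gene each, and 33 had enough counts to be tested. Oas1a, Mx1 and Ifitm1 did not pass the filter on low counts.

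The series measured RNA from whole gastrocnemius, a calf muscle of male mice, with bulk RNA sequencing. There were 3 libraries of HSA-PGC-1a3 transgenic muscle and 3 of wild-type muscle, and no treatment is named. The transgene encodes PGC-1alpha3, an isoform of the coactivator PGC-1alpha (gene Ppargc1a), and is driven by the human skeletal actin promoter, which is active in muscle fibres. Strain and age are not given in the labels, nor is the number of animals behind a library, so p-values measure the spread between these libraries.

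Interferons are secreted proteins that bind cell surface receptors, whose JAK kinases phosphorylate STAT proteins. Stat2 and Irf9 act within ISGF3, a complex that binds the interferon-stimulated response element (ISRE) in the promoters of antiviral genes, while interferon gamma acts through the gamma-activated site (GAS). The same signals raise MHC class I, which shows peptides from inside the cell to CD8+ T cells and is normally low in muscle fibres.

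Total counts ranged from 25532146 to 40846872 per library. Ppargc1a had 94358, 73513 and 120862 counts in transgenic muscle against 1179, 1809 and 1200 in wild-type muscle, which matches the labels. All 10 muscle fibre markers looked at were detected, and 9 of them were lower in the transgenic libraries (test below), beside 25.2% of all tested genes. The summed level of the 10 was 72290 to 77272 CPM (counts scaled to library size, with TMM factors) in the transgenic libraries, against 154954 to 164907. The TMM factors, which correct for such shifts in composition, were 1.15 in each transgenic library and 0.851 to 0.885 in the wild-type libraries. Scaling by library totals alone raised the median log2 fold change of all tested genes by 0.40, so each fold change below is relative to the bulk of genes.

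Across the 16593 genes tested, 50.7% passed the threshold (an adjusted p under 0.05 in edgeR's quasi-likelihood test), 25.5% higher and 25.2% lower in the transgenic muscle. Of the 33 tested members, 4 were higher (Ifi27, Tapbp, Irf9 and Ifi35), 5 were lower (Gbp7, Ifih1, Ifitm2, Ifitm3 and Ddx58) and 24 did not pass, so 27.3% passed. The median absolute log2 fold change was 0.21 over the tested members and 0.35 over all tested genes, and the signed medians were -0.10 and -0.016. Only Ifi27 passed with a change of at least 2-fold, as did 10.7% of all tested genes. The libraries of the 2 genotypes did not overlap for 11 tested members, 5 higher and 6 lower, while 59.6% of all tested genes had no overlap (30.1% higher, 29.5% lower). With library totals alone, 15 members were called higher and 0 lower (0 lower also at an unadjusted p under 0.05), against 61.0% of all tested genes called, 52.3% higher and 8.73% lower, so the direction of the lower calls below holds relative to the bulk of genes.

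**Figure D1:**
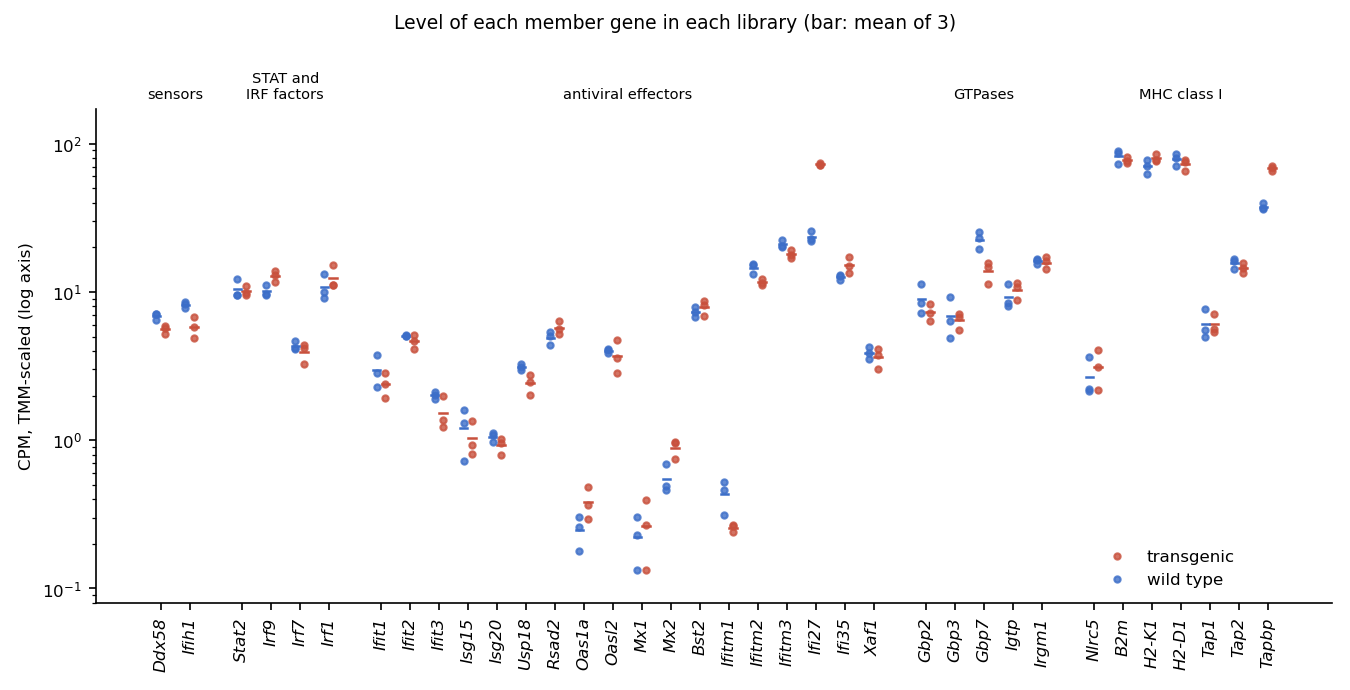
Level of each of the 36 members in every library, in CPM on a log axis, grouped by role; points are libraries and bars are means of 3. Ifi27 and Tapbp stand apart between genotypes, at 72.7 against 23.4 and 68.4 against 37.5 CPM. Of the 33 tested members 11 show no overlap between genotypes, beside 59.6% of all tested genes.

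Upstream sequence was read for the members in RefSeq's promoter table (GRCm38.p6), which matched 30 of the 36. Tap2, Mx2, Mx1, Nlrc5, Usp18 and Ifi27 were not among the matches. The 250 bases before each start were searched for the ISRE core on either strand, that is GAAA, any 2 bases and GAAA again (TTTC, any 2 bases and TTTC when it lies on the other strand), and for the GAS letters TTCNNNGAA, which read the same on both strands. The ISRE core was found for 14 of the 30 members (46.7%), against 936 of 27025 genes in the table (3.46%). The GAS letters were found for 7 of the 30 (23.3%), against 8.13% of all genes in the table. All 5 GTPase genes held the ISRE core, as did 7 of 14 antiviral effectors, 1 of 4 STAT and IRF factors (Stat2), 1 of 5 MHC class I genes (B2m) and 0 of 2 sensors.

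Among the members that passed, only Gbp7 and Ifitm2, both lower in the transgenic muscle, held the ISRE core. It was found in 0 of 3 members called higher that matched, 2 of 5 called lower and 11 of 20 that did not pass. Their 250 upstream bases are shown because these are the promoters where a matched motif and a called change meet. Capitals mark the matches, which do not overlap one another: in Gbp7 (chr3:142530086-142530335, plus strand) 2 GAS matches and then an ISRE core on the other strand, 44 to 53 bases before the start, and in Ifitm2 (chr7:140955962-140956211, minus strand) 1 ISRE core, 37 to 46 bases before the start.
Gbp7: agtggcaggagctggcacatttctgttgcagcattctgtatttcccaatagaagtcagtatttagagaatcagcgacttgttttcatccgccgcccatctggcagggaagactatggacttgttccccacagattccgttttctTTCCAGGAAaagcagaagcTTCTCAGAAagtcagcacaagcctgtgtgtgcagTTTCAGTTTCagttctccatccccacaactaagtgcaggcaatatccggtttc
Ifitm2: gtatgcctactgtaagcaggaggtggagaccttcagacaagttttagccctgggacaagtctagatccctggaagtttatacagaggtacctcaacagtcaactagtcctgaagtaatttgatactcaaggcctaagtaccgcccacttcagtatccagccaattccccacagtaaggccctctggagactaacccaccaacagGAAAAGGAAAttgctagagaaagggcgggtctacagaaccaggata

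For comparison, 40-base stretches around the ISRE core are shown for 5 members that did not pass, 1 or more for each role that had such a match beyond the STAT and IRF factors, picked after their values were seen. They are Isg15 (chr4:156200866-156200905, minus strand), Ifit1 (chr19:34640779-34640818, plus strand), Bst2 (chr8:71537575-71537614, minus strand), Igtp (chr11:58199507-58199546, plus strand) and B2m (chr2:122147533-122147572, plus strand). Capitals mark the ISRE core. In Isg15 the capitals hold 3 matches and in Bst2 2, each sharing 4 bases with the next, and a GAS match in Bst2 shares 3 bases with the first of them.
Isg15: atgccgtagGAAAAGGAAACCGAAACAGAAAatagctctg
Ifit1: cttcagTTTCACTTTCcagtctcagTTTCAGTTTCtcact
Bst2: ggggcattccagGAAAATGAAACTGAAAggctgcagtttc
Igtp: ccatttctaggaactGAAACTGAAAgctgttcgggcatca
B2m: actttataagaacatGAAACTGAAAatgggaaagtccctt
A match is a description of letters, and no match says only that these letters are not in the window.

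Per length, the most abundant member in wild-type muscle was B2m, the light chain of MHC class I, at 96.5 ± 10.4 CPM per kb of exonic sequence (SD, n = 3). Next came Ifitm3 at 31.1 ± 1.87 and H2-D1 at 30.4 ± 2.76 CPM per kb, which did not differ beyond their spread, and then H2-K1 at 23.99 ± 2.61 and Ifitm2 at 22.3 ± 1.82, which did not either. Ifi27 was sixth in wild-type muscle at 15.9 ± 1.38 CPM per kb, and in transgenic muscle reached 49.5 ± 0.841, above every other member except B2m at 89.8 ± 3.92. The heavy chains and B2m were thus far above the antiviral effectors Ifit1 (1.12 ± 0.284), Isg15 (1.60 ± 0.594) and Mx2 (0.152 ± 0.0350 CPM per kb) in wild-type muscle. These are means over a whole muscle, in which fewer cells of a type and less RNA per cell cannot be told apart.

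The 2 sensors of viral RNA in the cytoplasm were both lower in the transgenic muscle with TMM scaling, while with library totals alone Ddx58 was at 0.10 and Ifih1 at -0.10 on the log2 scale and neither passed. Ifih1, which encodes MDA5 (chromosome 2, 62595798 to 62646255, GRCm38), was at 6.74, 4.90 and 5.84 CPM in transgenic muscle, against 7.75, 8.29 and 8.60 CPM in wild-type muscle. Every transgenic library was below every wild-type library. On the log2 scale the difference was -0.50, with a standard error (SE) of 0.13 and an adjusted p of 0.00784. Ddx58, which encodes RIG-I (chromosome 4, 40203773 to 40239828), was at 5.92, 5.20 and 5.71 against 7.11, 7.08 and 6.51 CPM. The groups again did not overlap, and the log2 fold change was -0.30 (SE 0.11, adjusted p = 0.0431), a call that held in 5 of the 13 other settings tried besides library totals.

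Among the STAT and IRF factors, Irf9, the DNA-binding subunit of ISGF3 (chromosome 14, 55603571 to 55610030), was higher in the transgenic muscle. Its level was 13.0, 13.9 and 11.6 CPM in transgenic muscle, against 9.75, 9.50 and 11.2 CPM in wild-type muscle. The lowest transgenic library lay just above the highest wild-type one. The log2 fold change was 0.34 (SE 0.10, adjusted p = 0.0161), and it no longer passed without wild-type replicate 1 or without wild-type replicate 2 (adjusted p up to 0.0669). Irf9 shares 123 exonic bases with Rnf31, whose own log2 fold change was 0.21 (adjusted p = 0.0697).

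Stat2, which also acts in ISGF3, was at 9.80, 11.0 and 9.54 CPM against 9.49, 9.59 and 12.2 CPM. Its log2 fold change was -0.04 with a 95% interval of -0.30 to 0.21 (adjusted p = 0.780). Irf7, which amplifies type I interferon production, was at 4.18, 4.36 and 3.24 against 4.12, 4.20 and 4.63 CPM. These groups overlapped for both genes, and the interval for Irf7 was -0.47 to 0.19. Irf1, a factor induced early by interferon gamma, was at 11.1, 15.2 and 11.1 against 10.1, 9.10 and 13.3 CPM, with an interval of -0.18 to 0.61. Irf1 and Stat2 passed as higher with library totals alone (0.61 and 0.35, adjusted p = 0.0183 and 0.0244). Transgenic replicate 2 and wild-type replicate 3 were the high libraries of their genotypes for Irf1, and they were the highest for all 4 of these factors.

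Of the 15 tested antiviral effectors, 2 were higher, 2 were lower and 11 did not pass, so 26.7% passed, beside 50.7% of all tested genes. Ifi27 encodes a small hydrophobic protein induced by type I interferon and lies on chromosome 12, 103434211 to 103440239. It was at 74.1, 72.0 and 71.9 CPM in transgenic muscle, against 25.7, 22.6 and 21.9 CPM in wild-type muscle. The transgenic libraries lay within 1.03-fold of one another and far above the wild-type ones. The means were 72.7 ± 1.23 and 23.4 ± 2.03 CPM (SD, n = 3), a 3.11-fold difference with a log2 fold change of 1.64 and an SE of 0.07 (adjusted p = 4.07e-08). Leaving out any 1 library kept the log2 fold change between 1.59 and 1.70, and with library totals alone it was 2.03. The authors' deposited table gives 1.59.

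Ifi35, a leucine zipper protein of the cytoplasm (chromosome 11, 101448407 to 101458698), was higher by a smaller margin. It was at 14.9, 13.5 and 17.3 CPM against 13.0, 12.0 and 12.7 CPM. The groups did not overlap, with transgenic replicate 3 the highest. The log2 fold change was 0.28 (SE 0.10, adjusted p = 0.0371), and the call was lost with DESeq2, without transgenic replicate 3 and without each wild-type library in turn (adjusted p up to 0.139). It shares 290 exonic bases with the antisense gene Gm11626, and the counting did not use strand.

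The interferon-induced transmembrane proteins Ifitm2 and Ifitm3, which block entry of enveloped viruses, were lower with TMM scaling, but their log2 fold changes were 0.064 and 0.16 with library totals alone. Ifitm2, whose ISRE core is shown above (gene at chromosome 7, 140954837 to 140955987), was at 12.3, 11.2 and 11.4 CPM against 15.4, 15.1 and 13.2 CPM. The groups did not overlap, and the log2 fold change was -0.33 (SE 0.09, adjusted p = 0.00913). Ifitm2 shares 268 exonic bases with Gm45717 (log2 fold change -0.36). Ifitm3 (chromosome 7, 141009586 to 141010770) was at 19.3, 16.8 and 17.6 against 22.5, 20.5 and 20.2 CPM. These groups were also apart, with a log2 fold change of -0.23 and an SE of 0.08 (adjusted p = 0.0304), and the call was lost in 5 of the 13 settings. Their neighbour Ifitm1 had 8, 8 and 9 counts in transgenic muscle against 12, 16 and 7 and was not tested. Endothelial markers, genes of blood vessel lining, were lower beside them. With TMM scaling 14 of 14 passed as lower, beside 25.2% of all tested genes, and with library totals alone 1 of 14, beside 8.73%. The summed level of these markers was 561 to 592 CPM against 718 to 765. Smooth muscle and pericyte markers were lower as well, 10 of 10 with TMM scaling and 4 of 10 with library totals alone, beside the same shares. Their median log2 fold change with TMM scaling was -0.60, against -0.37 for the endothelial list. The part of both marker lists in these results was not tested.

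Ifit1, Ifit2, Ifit3, Isg15, Rsad2 and Bst2 did not pass in either direction with TMM scaling. With library totals alone Rsad2 and Bst2 passed as higher (0.63 and 0.51, adjusted p = 0.0022 and 0.00339). Ifit1, which binds foreign RNA caps, was at 2.83, 1.93 and 2.38 CPM against 3.77, 2.85 and 2.27 CPM. Isg15, a ubiquitin-like modifier, was at 1.35, 0.933 and 0.804 against 1.30, 0.720 and 1.60 CPM. For both the genotypes overlapped, and the intervals of the log2 fold change were -0.79 to 0.16 for Ifit1 and -0.96 to 0.54 for Isg15. Ifit2 and Ifit3, relatives of Ifit1, had log2 fold changes of -0.13 (adjusted p = 0.419) and -0.40 (adjusted p = 0.162). Rsad2, which encodes the antiviral enzyme viperin, was at 5.23, 6.40 and 5.63 against 5.03, 4.38 and 5.35 CPM, with an interval of -0.06 to 0.53. Bst2, or tetherin, which holds budding virus at the cell surface, was at 6.87, 8.20 and 8.73 against 6.80, 7.28 and 7.93 CPM, with an interval of -0.15 to 0.38.

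For 2 effectors the libraries of the genotypes did not overlap although the test with TMM scaling was not passed. Usp18, which removes Isg15 from proteins and dampens receptor signalling, was at 2.47, 2.77 and 2.01 CPM against 3.12, 3.28 and 2.99 CPM (log2 fold change -0.38, adjusted p = 0.0821). Mx2, of the antiviral dynamin-like GTPases, is annotated as a polymorphic pseudogene. It was at 0.954, 0.966 and 0.750 against 0.693, 0.461 and 0.490 CPM (log2 fold change 0.71, 95% interval 0.03 to 1.38, adjusted p = 0.077). Mx2 passed as higher with library totals alone (1.10, adjusted p = 0.0095). Usp18 lay lower and Mx2 higher in the transgenic libraries. Isg20, an RNA exonuclease, Oasl2, of the oligoadenylate synthetase family, and Xaf1, which favours apoptosis, had log2 fold changes of -0.19, -0.11 and -0.10, and none passed. Mx1 had 12, 8 and 5 counts against 7, 8 and 3, and Oas1a 9, 11 and 18 against 7, 9 and 4, both too few to test.

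**Figure D2:**
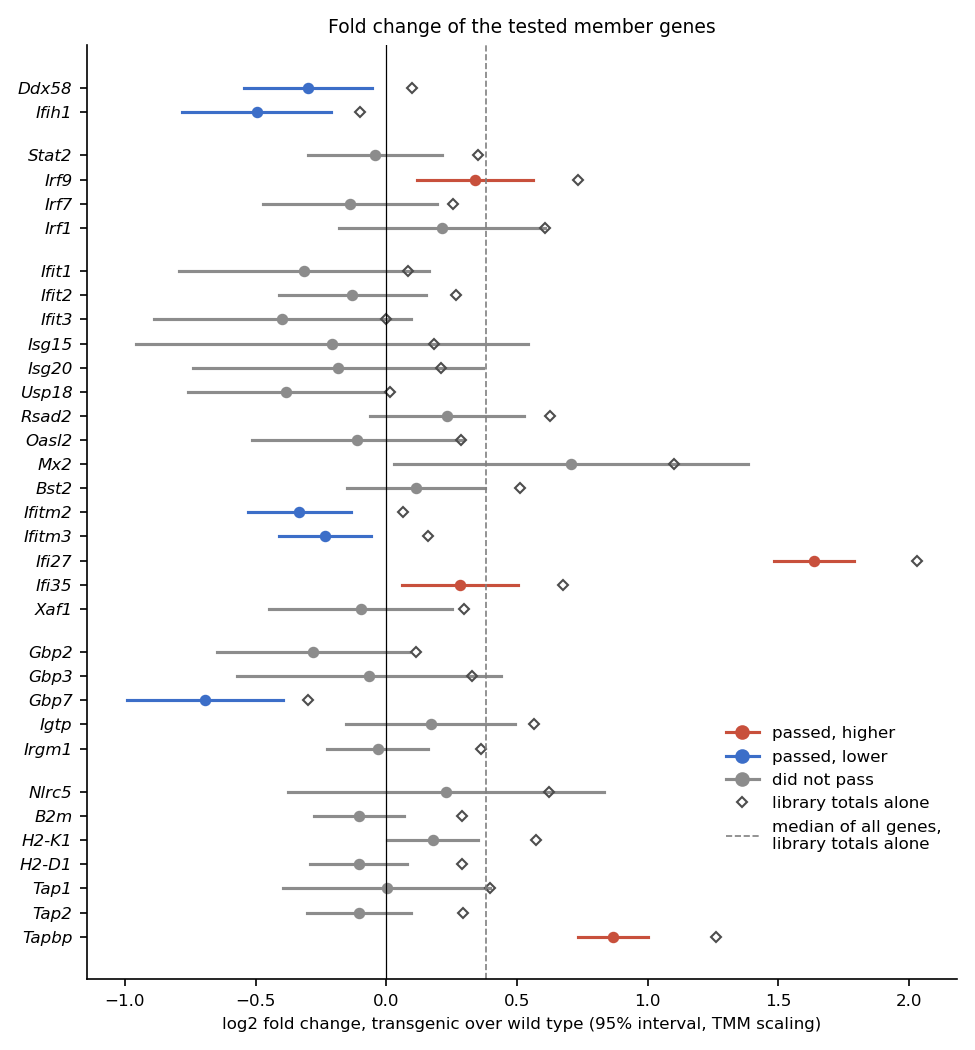
Log2 fold change of the 33 tested members, transgenic over wild type, with 95% intervals under TMM scaling; open diamonds are values with library totals alone and the dashed line is the median of all genes under that scaling (0.38). Ifi27 (1.64) and Tapbp (0.87) lie far to the right, Gbp7 (-0.69) lies farthest to the left, and the diamonds of Ddx58, Ifitm2 and Ifitm3 fall on the other side of 0 (0.10, 0.064 and 0.16).

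The interferon-inducible GTPases attack vacuoles that hold pathogens. Of the 5 members, only Gbp7 passed (20%, beside 50.7% of all tested genes), and it was lower in the transgenic muscle. Gbp7 (chromosome 3, 142530342 to 142550149), whose promoter is shown above, was at 11.4, 14.6 and 15.6 CPM in transgenic muscle, against 25.2, 19.3 and 23.1 CPM in wild-type muscle. Every transgenic library was below every wild-type one. The means were 13.9 ± 2.21 and 22.5 ± 2.95 CPM, 1.62-fold lower, with a log2 fold change of -0.69 and an SE of 0.13 (adjusted p = 0.00188). The log2 fold change was -0.30 with library totals alone (adjusted p = 0.103), and the authors' deposited table gives -0.66. Gbp7 shares 637 exonic bases with the pseudogene Gm43802, whose own log2 fold change was -0.67.

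Gbp2 and Gbp3, guanylate-binding proteins encoded beside Gbp7, did not pass. Gbp2 was at 6.41, 8.33 and 7.26 against 8.45, 7.23 and 11.2 CPM, and Gbp3 at 6.81, 7.10 and 5.55 against 6.37, 4.89 and 9.27 CPM. Wild-type replicate 2 was the lowest of its genotype and wild-type replicate 3 the highest for both, and without wild-type replicate 2 Gbp2 passed as lower (log2 fold change -0.43, adjusted p = 0.0457). Igtp, of the immunity-related GTPases, was at 8.81, 11.4 and 10.8 against 8.01, 8.38 and 11.3 CPM (adjusted p = 0.355). Irgm1, a regulator of that family, was at 14.2, 17.1 and 16.1 against 15.4, 16.7 and 16.3 CPM, with a narrow interval of -0.22 to 0.16. Igtp and Irgm1 passed as higher with library totals alone (0.57 and 0.36, adjusted p = 0.00752 and 0.00335). The Gbp, Igtp and Irgm genes have close copies, and fragments that map to several places were not counted, so their levels are uncertain.

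In MHC class I presentation, 1 of 7 members passed (14.3%), beside 50.7% of all tested genes. Tapbp encodes tapasin, which holds the class I heavy chain at the peptide transporter while it is loaded (chromosome 17, 33915899 to 33929292). It was at 68.7, 65.6 and 71.0 CPM in transgenic muscle, against 36.3, 36.6 and 39.7 CPM in wild-type muscle. The gap between genotypes was far wider than the spread within either. The means were 68.4 ± 2.72 and 37.5 ± 1.87 CPM, 1.82-fold higher, with a log2 fold change of 0.87 and an SE of 0.06 (adjusted p = 9.29e-07). The authors' deposited table gives 0.85. Tapbp shares 904 exonic bases with the antisense gene Gm19412 (log2 fold change 0.91, adjusted p = 0.000155) and 149 with Zbtb22 (0.80, adjusted p = 3.68e-06), both also higher, and these fragments were counted for each gene.

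The class I molecule itself did not pass with TMM scaling. B2m was at 74.2, 80.9 and 76.5 CPM against 89.5, 72.8 and 86.7 CPM, and H2-D1, a heavy chain, at 65.2, 77.7 and 75.7 against 80.2, 70.7 and 84.6 CPM. H2-K1, the other classical heavy chain here, was at 77.4, 76.9 and 84.5 against 70.8, 62.7 and 78.0 CPM. All these groups overlapped, and wild-type replicate 2 was the lowest wild-type library for each. The 95% intervals were -0.28 to 0.07 for B2m and -0.29 to 0.08 for H2-D1, while H2-K1 had a log2 fold change of 0.18 (adjusted p = 0.0845). H2-K1 passed as higher without wild-type replicate 3, with no filter on low counts and with a replicate block (log2 fold change up to 0.25, adjusted p down to 0.00912), and B2m as lower without wild-type replicate 2 (log2 fold change -0.20, adjusted p = 0.0261). With library totals alone H2-K1, B2m and H2-D1 all passed as higher, at 0.57, 0.29 and 0.29 (adjusted p = 0.000269, 0.0161 and 0.0219). The median of all genes was 0.38 with that scaling. H2-K1 and H2-D1 are near-identical in parts, and fragments that fit both were not counted.

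The peptide transporter did not pass with TMM scaling either. Tap1 was at 5.33, 7.13 and 5.65 CPM against 5.50, 4.98 and 7.71 CPM, and Tap2 at 14.6, 13.4 and 15.7 against 14.3, 16.0 and 16.6 CPM. Both overlapped between genotypes, with log2 fold changes of 0.00 (95% interval -0.39 to 0.40) and -0.10 (95% interval -0.30 to 0.10). With library totals alone Tap2 passed as higher (0.29, adjusted p = 0.0137) and Tap1 did not pass (0.40, adjusted p = 0.0896). Nlrc5, the transactivator of class I genes, was at 2.17, 4.03 and 3.11 against 2.21, 2.16 and 3.65 CPM. It was among the most variable members within a genotype, with a 1.86-fold range in the transgenic and a 1.69-fold range in the wild-type libraries.

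Within a genotype the members moved unevenly over libraries. Wild-type replicate 3 was the highest wild-type library for 20 of the 33 tested members (60.6%), against 29.5% of all tested genes, and wild-type replicate 2 was the highest for 2 (6.06%), against 40.3%. In the transgenic muscle, replicate 2 was the highest for 16 members (48.5%), against 33.2% of all tested genes. Of the 7 MHC class I genes, 6 were highest in wild-type replicate 3, whereas 8 of the 15 antiviral effectors were highest in wild-type replicate 1. The summed level of 13 macrophage markers was 135, 85.2 and 136 CPM in wild-type replicates 1, 2 and 3 and 116, 127 and 112 CPM in the transgenic ones, so it too was lowest in wild-type replicate 2. Between genotypes 1 of the 13 macrophage markers passed (7.69%, beside 50.7% of all tested genes). It was Cd68, which was higher (log2 fold change 1.40), while the median over the 13 was -0.06. Of 12 T and NK cell markers only Cd3e was tested, with 326, 237 and 265 counts against 24, 30 and 27, while the other 11 had at most 9 counts in any library. Of 8 B and plasma cell markers only Ighm, the heavy chain of IgM, was tested, and it was lower, with 107, 119 and 156 counts against 2771, 1017 and 2621 (log2 fold change -4.50, adjusted p = 0.00895). It too was lowest in wild-type replicate 2 among the wild-type libraries. Of 5 tested dendritic cell markers 1 passed (20%, beside 50.7% of all tested genes). It was Xcr1, with 44, 30 and 30 counts against 6, 12 and 3 (log2 fold change 2.05, adjusted p = 0.00138). The 4 that did not pass, Zbtb46, Clec9a, Cd209a and Siglech, lay below 0, at -0.35, -0.07, -0.59 and -0.69. The part of these cell markers in the results was not tested.

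**Figure D3:**
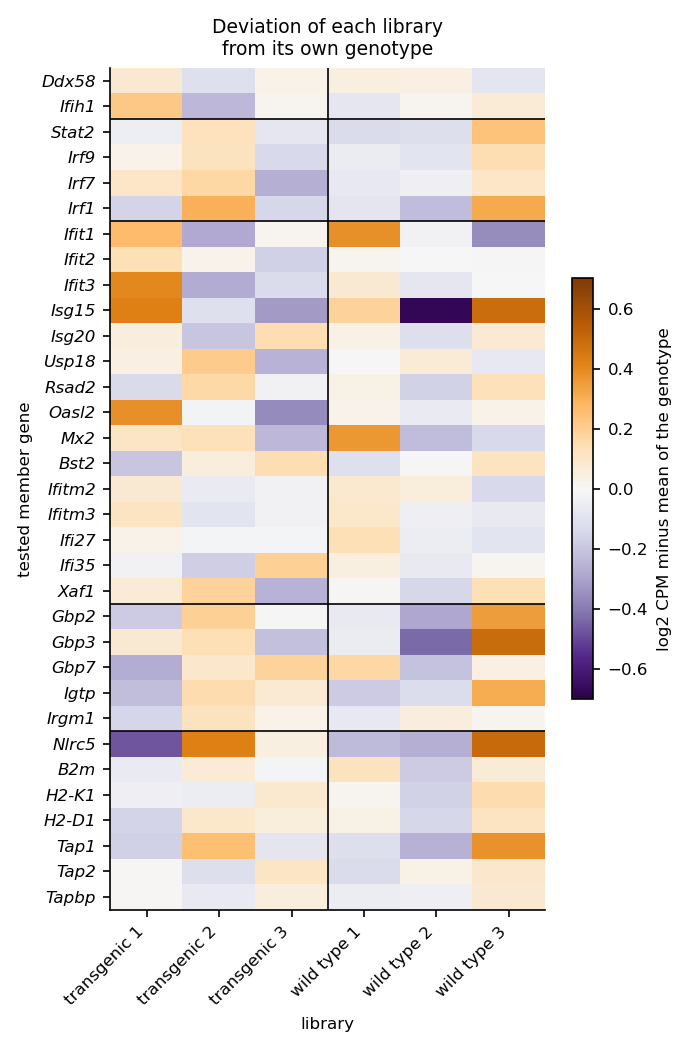
Log2 CPM of each tested member in each library minus the mean of its own genotype; rows are genes ordered by role, columns are the 6 libraries, and orange is above and purple below the mean. Wild-type replicate 3 is the highest of its genotype for 20 of 33 members and wild-type replicate 2 for 2.

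The other genes of the pathway were taken from 6 lists of 165 genes, of which 122 were tested, 23 were higher and 19 lower. That is 34.4%, beside 50.7% of all tested genes, 25.5% higher and 25.2% lower. No interferon gene could be tested: each of 21 type I, II and III ligand genes had 3 counts or fewer in every library, and 16 of them had none. Summed over the 21 genes, there were 1, 3 and 0 counts in transgenic muscle, against 0, 1 and 2 in wild-type muscle. A count of 3 equals 0.0803 to 0.134 CPM at these depths, and no difference between genotypes could be tested at or below that level. The Ifna genes are close copies of one another, and fragments that map to several places were not counted, so their levels are uncertain.

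Of 18 receptor, kinase and negative regulator genes, 7 were higher and 6 lower, or 72.2%, beside 50.7% of all tested genes. Scaled by library totals alone, 10 were higher and 2 lower, where 52.3% of all tested genes were higher and 8.73% lower. Ifnlr1, the specific chain of the type III interferon receptor, had 63, 65 and 66 counts in transgenic muscle, against 2, 3 and 4 in wild-type muscle. The 2 groups were far apart at these low counts, and the ratio of summed, scaled counts was 17.7 (95% interval 9.13 to 39.3, counting error only). Both chains of the type I receptor were higher: Ifnar1 was at 21.9 ± 0.995 against 16.8 ± 0.562 CPM (log2 fold change 0.39, adjusted p = 0.00099) and Ifnar2, named after its values were seen, at 10.3 ± 0.959 against 8.38 ± 0.356 CPM (0.30, adjusted p = 0.0260). On the interferon gamma side, Jak2, a receptor kinase, was lower at 40.3, 35.1 and 43.8 against 112, 92.4 and 89.7 CPM (log2 fold change -1.30, SE 0.10, adjusted p = 1.04e-05). Ifngr2, the second chain of that receptor, was lower at 51.6 ± 3.94 against 76.8 ± 3.87 CPM (log2 fold change -0.58, adjusted p = 4.39e-05). Its other chain Ifngr1, named after its values were seen, did not pass (-0.065, adjusted p = 0.641). Of the receptor kinases Jak1 and Tyk2, also named afterwards, Jak1 was lower with TMM scaling (-0.23, adjusted p = 0.0299) and Tyk2 did not pass (0.12, adjusted p = 0.251). Ptpn11 and Ptpn1, phosphatases that act on cytokine signalling, were lower with TMM scaling, with log2 fold changes of -0.45 and -0.30. Ptpn2, of the same family, was higher at 0.28, a call lost without wild-type replicate 3 (adjusted p = 0.0639). With library totals alone Ptpn1 was at 0.096.

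Of 17 tested genes of nucleic acid sensing, 1 was higher and 5 were lower, or 35.3%, beside 50.7% of all tested genes. Scaled by library totals alone, 6 were higher and 1 was lower, where 52.3% of all tested genes were higher and 8.73% lower. Irf3, the factor that turns on the interferon beta gene, was at 27.6, 27.6 and 27.9 CPM against 19.7, 21.7 and 18.1 CPM (log2 fold change 0.48, adjusted p = 0.000359), and shares 88 exonic bases with Bcl2l12. Mavs, the mitochondrial adaptor that RIG-I and MDA5 signal through, was lower at 35.0, 34.3 and 33.3 against 49.7, 59.8 and 58.3 CPM (log2 fold change -0.71, SE 0.07, adjusted p = 1.61e-05). So the adaptor and both of its RNA sensors were lower with TMM scaling. The sensors Ddx58 and Ifih1 were at 0.10 and -0.10 with library totals alone, and neither passed. The signalling adaptors Traf6 and Traf3 were lower by TMM with log2 fold changes of -0.27 and -0.25, but were at 0.12 and 0.14 with library totals alone. Irf5, an interferon regulatory factor of myeloid cells, was lower with TMM scaling, at -0.54, and shares 411 exonic bases with Tnpo3.

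Of 56 other tested interferon-stimulated genes, 7 were higher and 5 lower, or 21.4%, beside 50.7% of all tested genes. Their median log2 fold change was -0.13. Ifi30, a lysosomal thiol reductase of antigen processing, was at 14.6, 19.1 and 20.9 CPM in the transgenic libraries against 3.94, 3.97 and 4.86 CPM (log2 fold change 2.10, SE 0.15, adjusted p = 1.6e-06). Its transgenic and wild-type libraries lay far apart. Gbp6 was higher at 0.75 (1726 exonic bases shared with Gm43302), the double-stranded RNA kinase Eif2ak2 at 0.46 and Irgm2, which shares 162 exonic bases with Igtp, at 0.36. Ifit3b, a near-identical copy of Ifit3 whose split of fragments with it is uncertain, was lower with 14, 12 and 20 counts against 36, 81 and 34 (log2 fold change -1.95, adjusted p = 0.000199). The repressor Irf2, the nucleotide phosphohydrolase Samhd1 and the lectin Lgals9 were lower at -0.43, -0.42 and -0.46, and at -0.031, -0.026 and -0.063 with library totals alone, where they did not pass.

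Of 24 tested genes of peptide supply and other class I molecules, 7 were higher and 3 lower, or 41.7%, beside 50.7% of all tested genes. Scaled by library totals alone, 14 were higher and 2 lower, where 52.3% of all tested genes were higher and 8.73% lower. Psme2, a subunit of the PA28 proteasome activator, was at 19.6, 21.4 and 24.1 CPM against 6.93, 5.76 and 5.93 CPM (log2 fold change 1.81, SE 0.11, adjusted p = 2.86e-07), beside the close copy Psme2b, which makes its level uncertain. Its partner Psme1, named after its values were seen, was at 28.3 ± 1.23 against 30.9 ± 1.05 CPM (-0.13, adjusted p = 0.115), and the immunoproteasome subunits Psmb8 and Psmb9, also named afterwards, had log2 fold changes of 0.03 and -0.01 and did not pass. Fcgrt, the neonatal Fc receptor, was higher at 0.62, the class I chaperone Calr at 0.27 and Rfxank, a subunit of the RFX complex that binds MHC promoters, at 0.53 (1341 exonic bases shared with Nr2c2ap). Mr1, which presents vitamin metabolites to T cells, was lower at 19.9, 18.0 and 19.5 against 40.4, 40.4 and 34.5 CPM (log2 fold change -1.01, adjusted p = 2.13e-06). Rfxap, another RFX subunit, and H2-T22, a nonclassical class I molecule, were lower with TMM scaling, at -0.61 and -0.55. H2-T22 shares 1003 exonic bases with A930015D03Rik. Of 7 tested MHC class II genes, which mark antigen-presenting cells, 1 was higher, or 14.3%, beside 50.7% of all tested genes. It was H2-DMa at 0.56 (adjusted p = 0.0382), which shares 360 exonic bases with Brd2. In edgeR 0 class II genes were lower (0 also at an unadjusted p under 0.05). The H2-DMa call was lost with DESeq2, with a replicate block and without transgenic replicate 2 or 3 or wild-type replicate 2 or 3 (adjusted p up to 0.146).

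**Figure D4:**
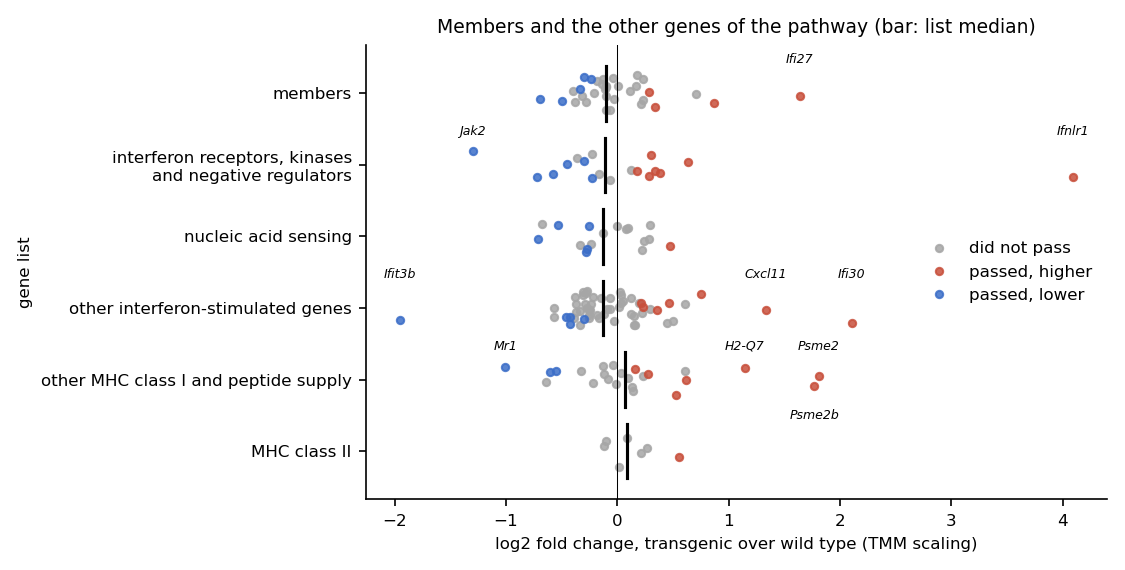
Log2 fold change of the tested members and of the other tested genes of each pathway list, transgenic over wild type with TMM scaling; each point is a gene and bars are list medians. Genes past the threshold with at least a 2-fold change are labelled: Ifi27 is the only member among them, beside Ifnlr1 (4.10), Ifi30 (2.10), Psme2 (1.81), Psme2b (1.77), Cxcl11 (1.33), H2-Q7 (1.15), Mr1 (-1.01), Jak2 (-1.30) and Ifit3b (-1.95).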

How the data were processed

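Per the submitters' processing notes, reads were aligned with STAR 2.5.0a to GRCm38.p6 and counted with featureCounts 2.0.0, and the authors compared genotypes with DESeq2 (version unstated). Per the file headers, the deposited table holds raw fragment counts per gene, counted without strand; fragments that overlap more than 1 gene count for all of them, and the recorded command does not count fragments that map to several places. The authors' deposited comparison table gives log2 fold changes with p-values and adjusted p-values.

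Of the 51911 gene IDs, 51633 were placed with a GENCODE annotation (GRCm38). Counts were filtered with filterByExpr, scaled with TMM and tested with edgeR 4.0.16 in R 4.3.3 (robust quasi-likelihood F test with genotype alone in the model). P-values were adjusted by Benjamini-Hochberg over 16593 genes, with a threshold of 0.05. The biological coefficient of variation was 10.7%. CPM used TMM-scaled totals. The test was checked on simulated counts. It called 45.6% of 1.5-fold changes, 77.3% of 2-fold changes, 93.9% of 4-fold changes and 0.067% of unchanged genes. In that simulation 16393 of 16593 genes were unchanged, unlike these data, where 50.7% of tested genes passed. No 2 libraries of a genotype were duplicates: their counts differed beyond sampling noise, with chi-square values of 10.5 to 26.0 per degree of freedom.

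The members, the pathway lists and the marker lists were chosen with earlier results of these data known. All members could be named, and of each pathway list up to 4 genes past the threshold in each direction by smallest p (1 gene this rule names is not reported here); Psme2b, Cxcl11, H2-Q7 and those said to be so were named after their values were seen. Alternatives were DESeq2 1.42.0, upper-quartile factors, library totals alone, 2 other filters, limma-voom (limma 3.58.1), no robust estimation, leaving each library out, and a replicate block.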

Additional observations from a re-analysis of the deposited data

How the results depend on the processing

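Among the members, 4 were called higher and 5 lower. Library totals alone gave 15 higher and 0 lower, and 3 were lower with DESeq2 and 3 with no filter on low counts. With 1 library left out, 2 to 4 members were higher and 3 to 6 lower. Over all tested genes, 4230 were higher and 4189 lower, against 8676 and 1448 with library totals alone and, with 1 library left out, 3678 to 4121 and 3581 to 3931. Library totals alone moved the median of all genes from -0.016 to 0.38, and 18 members changed from below to above 0. The next values cover the members and the pathway genes named by smallest p. Of those that passed with either scaling, these changed from below to above 0, to log2 fold changes of B2m 0.29, Ddx58 0.097, H2-D1 0.29, Ifitm2 0.064, Ifitm3 0.16, Irgm1 0.36, Ptpn1 0.096, Stat2 0.35, Tap2 0.29, Traf3 0.14 and Traf6 0.12. The other 10 members passed with neither and lay at 0.014 to 0.33 with library totals alone. Testing all genes with at least 1 count moved the median to 0.11, with 34575 genes tested in place of 16593. Of the 9 called members, 5 (Ifi27, Tapbp, Gbp7, Ifih1 and Ifitm2) passed in the same direction in all 13 settings other than library totals, and 4 (Ifi27, Tapbp, Irf9 and Ifi35) passed with library totals alone. Ptpn2 no longer passed without wild-type replicate 3. The filter and the leave-one-out fits change the genes or libraries tested; beyond that the cause was not tested. Genes at a few counts per library limit what can be shown: 3 members and all 21 interferon genes were not tested.

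The labels do not say whether the replicate numbers pair the libraries. Deviations from the genotype means correlated at 0.10, -0.09 and -0.21 for numbers 1, 2 and 3, and not every library correlated best with its own number. With 3 libraries per genotype these correlations cannot decide whether libraries were paired. With a replicate block, 5 members were higher and 4 lower, and 4165 and 4166 of all genes.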

Other observations

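For some pathway genes the authors' deposited table and DESeq2 run here on the deposited counts give different log2 fold changes. For Irf5 the authors' deposited table gives -1.57 and the counts gave -0.53. For Ifnlr1 the authors' deposited table gives 2.79 and the counts gave 4.15. For Ifit3b the authors' deposited table gives -2.64 and the counts gave -1.95, and for Tgtp1, an interferon-inducible GTPase with a near-identical copy, -1.22 and -0.56. Only 3 of the 36 members are listed in the authors' deposited table, which holds no value for the other called members. For those listed, Ifi27, Tapbp and Gbp7, it gives 1.59, 0.85 and -0.66 and the counts gave 1.64, 0.87 and -0.69. These genes were picked after their values were seen, and the cause was not tested.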
